A study of Rattus norvegicus with 102 samples.

Results

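Gfap and 8 further genes that mark astrocytes or their reaction to ageing and injury (Vim, Serpina3n, Aqp4, S100b, Aldh1l1, Aldoc, Sox9 and Fgfr3) were followed through the 3 dissected subfields of the rat hippocampus, CA1, CA3 and the dentate gyrus (DG). The members were the rows whose gene name equals one of these 9 symbols, 9 of 26284 genes listed in the Illumina table and 9 of 26341 in the Ion Proton table, and the rule uses no measured value. The tissue came from 34 male rats of the strain Fisher 344 (Fischer 344 in the paper). There were 10 young rats of 5 to 6 months, 12 aged unimpaired and 12 aged impaired rats, the 24 aged rats having an age of 17 to 22 months. Aged rats were classed by a water maze probe trial, a swim with the platform taken away, from the time spent in the goal quadrant and in the opposite one. Each rat gave 1 library per subfield, 34 libraries for each, and this RNA was read after poly-A selection by both an Illumina and an Ion Proton sequencer, so the Ion Proton values retest the RNA of the same rats and add no animals.

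Astrocytes are the glial cells that clear glutamate and potassium from around synapses, supply neurons with metabolites and wrap the blood vessels with their endfeet. Gfap and vimentin (Vim) build their intermediate filaments, and the amount of Gfap is the classical sign of astrocyte reactivity, known to rise in the ageing hippocampus. Serpina3n, a secreted inhibitor of serine proteases, is a gene of reactive astrocytes in mice. S100b is a calcium-binding protein that astrocytes also release, Aqp4 is the water channel of the endfeet, and Fgfr3 is a receptor for fibroblast growth factors. Aldh1l1 is a folate enzyme used as a general astrocyte marker, Aldoc is the brain form of the glycolytic enzyme aldolase, and Sox9 is a transcription factor that specifies and maintains the cell type. Vim is also made by endothelium, meninges, ependyma and microglia, and S100b by oligodendrocytes, so none of these is read here as a count of astrocytes. In dissected tissue, more cells of a type and more RNA per cell cannot be told apart.

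Values are normalised reads, which are the reads of a gene divided by the size factor of its library, and levels are compared for 1 gene between libraries and not between genes. The files give the chromosome of each gene without start or end. Gfap (ENSRNOG00000002919), Sox9 (ENSRNOG00000002607) and Aldoc (ENSRNOG00000011452) are on chromosome 10, Vim (ENSRNOG00000018087) on 17, Serpina3n (ENSRNOG00000010527) on 6, Aqp4 (ENSRNOG00000016043) on 18, S100b (ENSRNOG00000001295) on 20, Aldh1l1 (ENSRNOG00000047023) on 4 and Fgfr3 (ENSRNOG00000016818) on 14. All 9 are annotated as protein coding.

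The promoters of Gfap and Vim, the filament genes whose levels moved with age and with subfield respectively, are shown with the 250 bases before the annotated gene start. The sequences are those of RefSeq on build GRCr8, which is not the build of the tables. Gfap is at chr10:88361662-88361911 on the minus strand, and Vim at chr17:81577011-81577260 on the plus strand. Capitals mark matches to 6 short motifs searched on both strands: STAT (TTCNNNGAA), AP-1 (TGANTCA), NFI (TTGGC), the CCAAT box (CCAAT), the TATA box (TATAAA) and the GC box (GGGCGG).
Gfap: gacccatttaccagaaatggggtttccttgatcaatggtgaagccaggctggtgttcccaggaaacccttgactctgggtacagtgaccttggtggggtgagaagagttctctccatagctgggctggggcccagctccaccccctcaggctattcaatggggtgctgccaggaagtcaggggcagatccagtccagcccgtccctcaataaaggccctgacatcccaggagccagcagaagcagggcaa
Vim: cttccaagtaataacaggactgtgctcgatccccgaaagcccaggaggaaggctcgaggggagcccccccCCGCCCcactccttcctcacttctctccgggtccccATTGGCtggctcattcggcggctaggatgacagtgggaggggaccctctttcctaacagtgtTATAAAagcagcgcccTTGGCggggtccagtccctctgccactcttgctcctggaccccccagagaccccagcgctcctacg
The Gfap window held 0 matches. The Vim window held 5, namely a GC box on the minus strand 180 to 175 bases before the start, a CCAAT box on the minus strand at 144 to 140 that overlaps an NFI match at 143 to 139, a TATA box at 82 to 77 and an NFI match at 66 to 62. Over 33469 promoters of the same length, 40.3% held NFI, 34% CCAAT, 30.5% the GC box, 12.9% the TATA box, 7.67% STAT and 6.34% AP-1. The windows were 57.6% G or C for Gfap and 62.4% for Vim. An entry was found for 8 of the 9 members. A match is a match of letters and was not tested as a binding site.

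Depth ran from 3246922 to 42750899 reads on genes per Illumina library and from 4470473 to 21434160 on Ion Proton, and 7 rats (3 young, 2 unimpaired, 2 impaired) stood apart with at least 28017953 Illumina reads in each subfield. Markers of CA1 pyramidal neurons were higher in CA1 than in CA3 for 5 of 5 genes, and dentate granule markers were lower in CA1 and in CA3 than in DG for 5 of 5. CA3 pyramidal markers were higher in CA3 than in CA1 for 3 of 6 and than in DG for 1 of 6. These lists hold genes that the study had reported for the subfields of these same rats, among them Wfs1, Ndst4, C1ql2, Dsp and Plk5. The marker counts are thus no independent check of the dissection. The shares of all genes by direction are given with the subfield comparisons below. By the neuron markers 10 libraries of 7 rats were nearer to another subfield than to their label on both Illumina and Ion Proton (1 labelled CA1, 5 CA3, 4 DG). The CA3 library of rat R9860 and the CA3 and DG libraries of rat R9881 were so on a single instrument and are not among the 10. The rat numbers form a series below 9000 (18 rats: 5 young, 6 unimpaired, 7 impaired) and one from 9000 (16 rats: 5, 6 and 5). The study had 2 sites, and its numbers of young and aged rats per site equal those of the 2 number series. The labels do not tie a rat to a site, so whether the series follow the sites is not known. On Ion Proton 7 libraries, all of aged rats, had reads on 15057 to 16845 genes, against 17148 to 19607 in the others (4 from CA1, 2 unimpaired and 2 impaired, and 3 from CA3, all impaired), while the same samples had 17055 to 19110 in the Illumina table. Results that moved without the 10 libraries, without these 7 on Ion Proton (an alternative chosen after seeing the data) or within a number series are given both ways.

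Gfap was higher in the aged rats in all 3 subfields. It is an abundant transcript, with 5123 to 66387 reads in an Illumina library, so counting error was small beside the spread between rats. In CA1 the lowest, median and highest Illumina values were 10348, 13302 and 21253 in the young rats, 12694, 19115 and 26061 in the unimpaired and 12564, 17201 and 22956 in the impaired. The groups overlapped, but 22 of the 24 aged rats were above the young median and only 1 of 10 young rats was above the aged median. Mean CA1 levels were 14142 ± 3868 (SD, n = 10) in the young and 18930 ± 3857 (n = 24) in the aged, a log2 difference of 0.44 (SE 0.12, 95% interval 0.20 to 0.67, 1.35-fold).

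In CA3 the lowest, median and highest Gfap values were 7592, 12546 and 19499 in the young, 10947, 14817 and 25137 in the unimpaired and 12229, 16328 and 24353 in the impaired rats. The young CA3 rats were widely spread, and again 22 of 24 aged rats were above the young median. The means were 12429 ± 3480 and 16757 ± 3762, a log2 difference of 0.45 (95% interval 0.20 to 0.70, 1.37-fold).

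DG separated the ages best. The lowest, median and highest Gfap values there were 10591, 12409 and 14672 in the young, 13274, 16728 and 19640 in the unimpaired and 12673, 16920 and 21724 in the impaired rats. All 24 aged rats were above the young median, 19 of 24 were above the highest young rat, and 0 of 10 young rats were above the aged median. The young DG group was narrow, with a mean of 12488 ± 1126, against 16750 ± 2476 in the aged, and the log2 difference was 0.41 (SE 0.07, 95% interval 0.27 to 0.56, 1.33-fold).

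**Figure D1:**
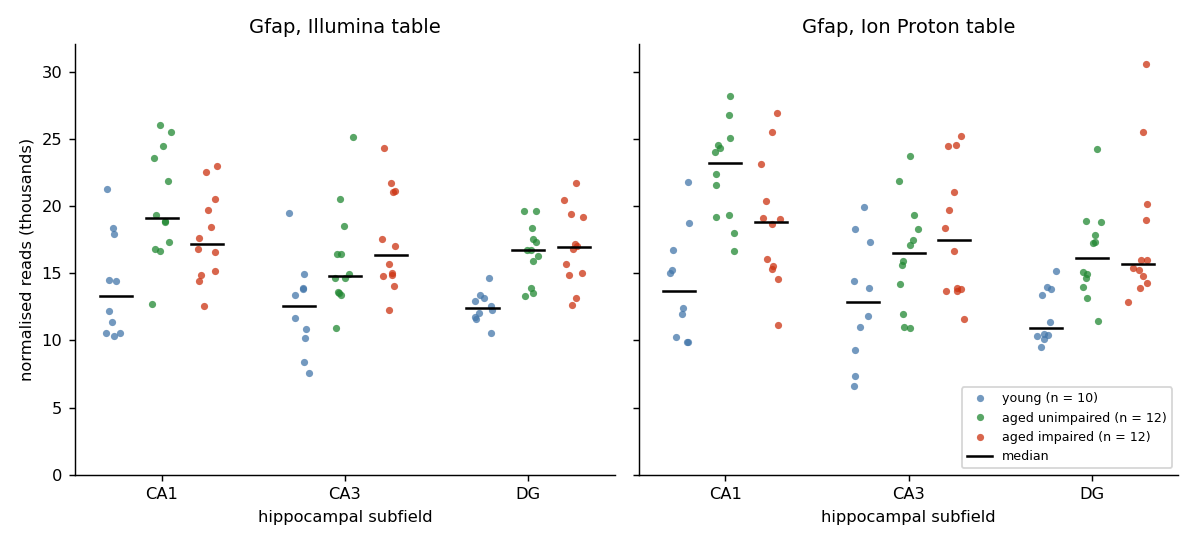
Normalised Gfap reads (vertical axis, in units of 1000) by hippocampal subfield in the Illumina table (left) and the Ion Proton table (right). Points are rats (10 young, 12 aged unimpaired, 12 aged impaired) and bars are group medians. In the Illumina table the young median is 12409 in DG, below all 24 aged rats, while in CA1 and CA3 the groups overlap more.

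An age call by limma required p under 0.01 on Illumina and, with the same sign, a one-sided p under 0.05 on Ion Proton. Of all genes tested in CA1 0.832% were called by this rule (0.676% higher in the aged), of those in CA3 0.393% (0.337% higher) and of those in DG 1.07% (0.92% higher). Of the 8 members that could be tested, Gfap alone was called, in each subfield. The study had already listed Gfap as higher with age in every subfield, from the same libraries, so this call repeats its result. After Benjamini-Hochberg adjustment over all genes, limma gave Gfap an adjusted p of 0.00209 in DG, 0.105 in CA1 and 0.367 in CA3, so only DG passed 0.05 in the Illumina table. In DG the adjusted p was 0.281 among the rats numbered below 9000 and 0.0928 in the table of unstated library type, where Gfap did not pass 0.05. The share of all genes at an adjusted p under 0.05 was 0.338% for CA1, 0% for CA3 and 0.3% for DG, and CA3 had 471 genes at an unadjusted p under 0.05.

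The Ion Proton libraries gave Gfap log2 differences with age of 0.56 in CA1, 0.45 in CA3 and 0.51 in DG. Aged against young means there were 20647 against 14192 in CA1, 17254 against 12990 in CA3 and 17130 against 11859 in DG. The other table of the same rats, whose library type the labels do not state, gave 0.45, 0.44 and 0.37, and by that table alone Gfap in CA3 (p = 0.0101) would just miss the call. The size of the difference was thus between 0.37 and 0.56 on the log2 scale in all 9 comparisons of subfield and table.

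The age difference of Gfap was also looked at within each number series, because levels in CA1 stood apart by series. The CA1 median over all rats was 15028 below 9000 and 20874 from 9000, while in CA3 it was 15629 and 14652. In CA1 below 9000, the lowest, median and highest values were 10348, 10557 and 14479 in the young, 12694, 18097 and 19346 in the unimpaired and 12564, 15152 and 18413 in the impaired rats. From 9000 they were 12179, 17933 and 21253, then 16823, 24034 and 26061, then 17621, 20494 and 22956. Inside each series the aged groups sat higher than the young, with less overlap than in the pooled values, and the log2 difference was 0.51 below 9000 and 0.40 from 9000. With the series as a term in the limma fit, the adjusted p of Gfap was 0.0017 in CA1 and 7.5e-05 in DG.

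In DG from 9000 the ages did not overlap for Gfap: the young rats lay between 11562 and 14672, the unimpaired between 16303 and 19640 and the impaired between 17018 and 21724. The log2 difference was 0.51 there and 0.34 below 9000, where the young reached 13169 and the lowest aged value was 12673. CA3 was the less certain subfield. Its Gfap difference was 0.55 from 9000 but 0.33 below 9000 (p = 0.047), where it was not called, and without the libraries that sat nearer to another subfield it was 0.35 (p = 0.0114) and not called either. CA3 also rested in part on the lowest young library, that of rat R9876 at 7592, without which the difference was 0.38 and still called.

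Both aged groups were set against the same 10 young rats. For unimpaired against young, the share of all genes called was 0.607% for CA1, 0.386% for CA3 and 0.621% for DG. Gfap was the only member called, in CA1 (0.53, 95% interval 0.25 to 0.81, p = 0.00076, adjusted p = 0.188, 1.44-fold) and in DG (0.40, 0.26 to 0.55, adjusted p = 0.022). In DG it was 0.35 below 9000 (adjusted p = 0.9995), where it was not called. Its CA3 value was 0.39 (0.08 to 0.69, p = 0.0150). For impaired against young, the shares were 1.21%, 0.274% and 0.948% in the same order, and Gfap was again the only member called, in CA3 (0.51, 0.21 to 0.81, p = 0.0017, adjusted p = 0.89, 1.42-fold) and in DG (0.43, adjusted p = 0.033). Its CA1 value was 0.35 (0.08 to 0.61, p = 0.0132). Which aged group passed in CA1 and CA3 changed with the fit. Gfap in CA1 of the impaired rats was called with the number series as a term (0.39, p = 0.000195), among rats below 9000 (0.44), with quantile normalisation (0.38) and by the table of unstated library type alone (0.36). Gfap in CA3 of the unimpaired rats was called with the series term (p = 0.00874), and in CA3 of the impaired it was not called without the libraries nearer to another subfield (0.42, p = 0.0147) or below 9000 (0.35, p = 0.0562). All 4 Gfap values of these subfields were positive and their intervals overlapped. In the impaired rats S100b was also called in DG with the series term, and Aqp4 in CA3 among the rats from 9000.

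Between the aged groups Gfap was not called in any subfield. The impaired minus unimpaired log2 difference was −0.18 in CA1 (95% interval −0.41 to 0.05, p = 0.115), 0.12 in CA3 (−0.13 to 0.38) and 0.02 in DG (−0.15 to 0.20). Of the 12 impaired rats, 4 were above the unimpaired median in CA1, 9 in CA3 and 7 in DG. In the Ion Proton table the CA1 value was −0.28 (p = 0.035). Of all genes 0.62% were called for CA1, 0.0211% for CA3 and 0.121% for DG, and of the 8 tested members 0 in any subfield. At an unadjusted p under 0.05 in the Illumina table the count of members was also 0 in each, where 5.71% of all genes passed for CA1, 1.4% for CA3 and 3.85% for DG. Against shares this low a count of 0 among 8 genes is near the background. Both edgeR and DESeq2 on the recovered reads called 0 members as well. Vim in DG was called with the number series as a term (0.43, p = 0.0024) and among the rats from 9000 (0.76, p = 0.0006), as described with its values by series.

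Whether the Gfap differences depended on the subfield was asked with interaction terms over the Illumina libraries of all subfields. The impaired minus unimpaired difference in CA1 less that in CA3 was −0.31 (95% interval −0.64 to 0.02, p = 0.069, adjusted p = 0.907), and −0.41 in the Ion Proton table (p = 0.052). The other intervals of that difference were −0.54 to 0.12 for CA1 less DG, around −0.21, and the value for CA3 less DG was 0.10. The age difference of CA1 less that of CA3 was −0.01 (−0.32 to 0.29), of CA1 less DG 0.02 (−0.28 to 0.33) and of CA3 less DG 0.04 (−0.27 to 0.34). No gene of the 14179 tested by limma passed an adjusted p of 0.05 in any of the 6 interactions (0% called), with 50 to 740 genes at an unadjusted p under 0.05 (0.353% to 5.22%), and 0 of the 8 tested members were at an unadjusted p under 0.05. The age intervals thus leave room for a difference between subfields of up to 0.34 on the log2 scale.

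S100b came closest to Gfap among the other members and was not called. In CA1 its lowest, median and highest values were 17005, 18803 and 23237 in the young and 16697, 20972 and 30029 in the aged, and 20 of 24 aged rats were above the young median. In CA3 the medians were 17203 and 18568 with 19 of 24 aged rats above the young median, and in DG 15450 and 16823 with 20 of 24. Aged values were thus higher in most rats, but the spread within the ages was wide and the groups overlapped over most of their range. The log2 differences were 0.16 in CA1 (95% interval 0.01 to 0.31, p = 0.033, adjusted p = 0.738), 0.14 in CA3 (p = 0.21) and 0.16 in DG (p = 0.043). Ion Proton gave 0.00, 0.24 and 0.15. The Ion Proton value in CA1 included 2 of the libraries with few genes detected, unimpaired rats R2230 and R2232, which read 6243 and 4926 there but 21791 and 16697 on Illumina. Without all 7 such libraries Ion Proton gave 0.19 in CA1 (p = 0.0148, adjusted p = 0.813) and 0.26 in CA3 (p = 0.00977), and S100b was still not called, since the Illumina p stayed above 0.01. In the table of unstated library type alone S100b passed p under 0.01 in CA1 (0.13, p = 0.00999) and CA3 (0.21, p = 0.00053).

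The membrane proteins Aqp4 and Fgfr3 were not called with age. Mean Aqp4 in young and aged CA1 was 7513 ± 1246 and 7875 ± 1532, in CA3 7370 ± 810 and 7934 ± 1296, and in DG 6817 ± 1076 and 7000 ± 1003, log2 differences of 0.06, 0.09 and 0.04. Mean Fgfr3 in CA1 was 1549 ± 116 and 1618 ± 209, in CA3 1619 ± 279 and 1657 ± 354, and in DG 1466 ± 154 and 1580 ± 176, differences of 0.05, 0.02 and 0.11 (DG p = 0.076). The differences of the means were smaller than the spread between rats for both genes. The Aqp4 intervals of −0.14 to 0.25 in CA1 and −0.12 to 0.20 in DG both exclude the Gfap estimates of 0.41 to 0.45. In CA1 the Aqp4 interval still overlaps that of Gfap, and the genes were not tested against each other.

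The enzymes Aldh1l1 and Aldoc and the transcription factor Sox9 were likewise not called with age in any subfield. Mean Aldh1l1 in young and aged CA1 was 336 ± 41.6 and 352 ± 39.4, in CA3 384 ± 47.8 and 399 ± 64.5, and in DG 341 ± 33.0 and 340 ± 32.6, where the log2 difference was −0.00 (95% interval −0.11 to 0.10). Mean Aldoc in CA1 was 11887 ± 624 and 12318 ± 1315, in CA3 11620 ± 1824 and 11956 ± 2493, and in DG 9786 ± 1025 and 10267 ± 1290, differences of 0.05, 0.03 and 0.07. Mean Sox9 in CA1 was 202 ± 36.9 and 213 ± 38.9, in CA3 213 ± 29.6 and 229 ± 68.9, and in DG 197 ± 50.2 and 206 ± 37.0, differences of 0.07, 0.07 and 0.08. Young and aged rats overlapped throughout for these 3 genes. On Ion Proton the CA1 difference of Sox9 was 0.60 (p = 0.056) with aged values between 101 and 2003. The 4 highest of these, 1102 to 2003, were the 4 CA1 libraries with few genes detected, whose Illumina values were 154 to 214, and without them the difference was 0.26 (p = 0.231).

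**Figure D2:**
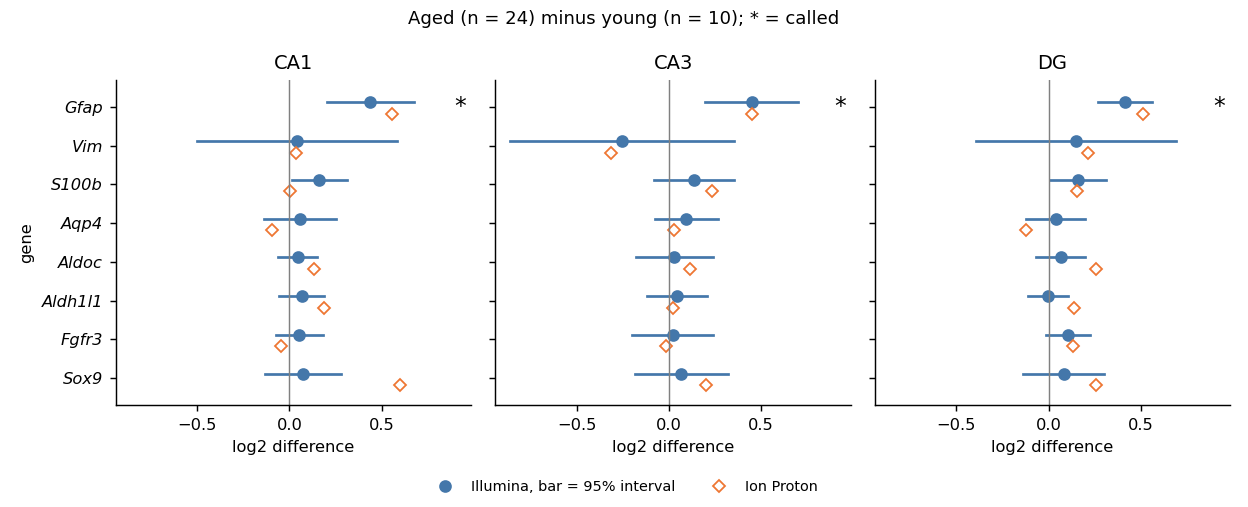
Log2 difference of aged minus young rats (horizontal axis) for the 8 tested members in CA1, CA3 and DG. Points and bars are the Illumina estimate with its 95% interval, diamonds are the Ion Proton estimate, and an asterisk marks a call, which Gfap alone has (0.44, 0.45 and 0.41).

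Over the 8 tested members the median log2 difference with age was 0.06 in CA1, 0.06 in CA3 and 0.09 in DG, beside −0.005, −0.014 and −0.002 over all genes. Positive values were found for 8 members in CA1, 7 in CA3 and 7 in DG. Serpina3n, the remaining member, was at the floor of the assay. It had 0 reads in 51 of the Illumina libraries, at most 3 reads in 93 and at most 16 in any, and on Ion Proton it had 0 reads in 51 libraries and at most 26. Its highest normalised values on Illumina were 7.15 in a CA3 library of an unimpaired rat and 7.08 in a DG library of an impaired rat. On Ion Proton they were 19.9 in CA3 of the impaired rat R1931, one of the libraries with few genes detected, where Illumina gave 1.23, and 7.97 in CA3 of the unimpaired rat R2185. It was below the filter of a mean of 10 and was not tested, so a change with age was not detectable at this depth.

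Gfap was also expressed relative to the mean log2 level of 6 members (Aqp4, S100b, Aldh1l1, Aldoc, Sox9 and Fgfr3) in the same library. In CA1 this relative level was 2.54 ± 0.33 (SD, n = 10) in the young, 2.98 ± 0.19 (n = 12) in the unimpaired and 2.82 ± 0.17 (n = 12) in the impaired rats, on the log2 scale. In CA3 it was 2.32 ± 0.43, 2.65 ± 0.43 and 2.76 ± 0.41, and in DG 2.54 ± 0.24, 2.87 ± 0.25 and 2.88 ± 0.20. The mean of the 6 genes alone in young and aged CA1 was 11.20 and 11.28, in CA3 11.23 and 11.29, and in DG 11.06 and 11.14. None of the 6 was called with age, so these relative levels restate the Gfap difference and add no evidence for it, and no test is given for them.

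**Figure D3:**
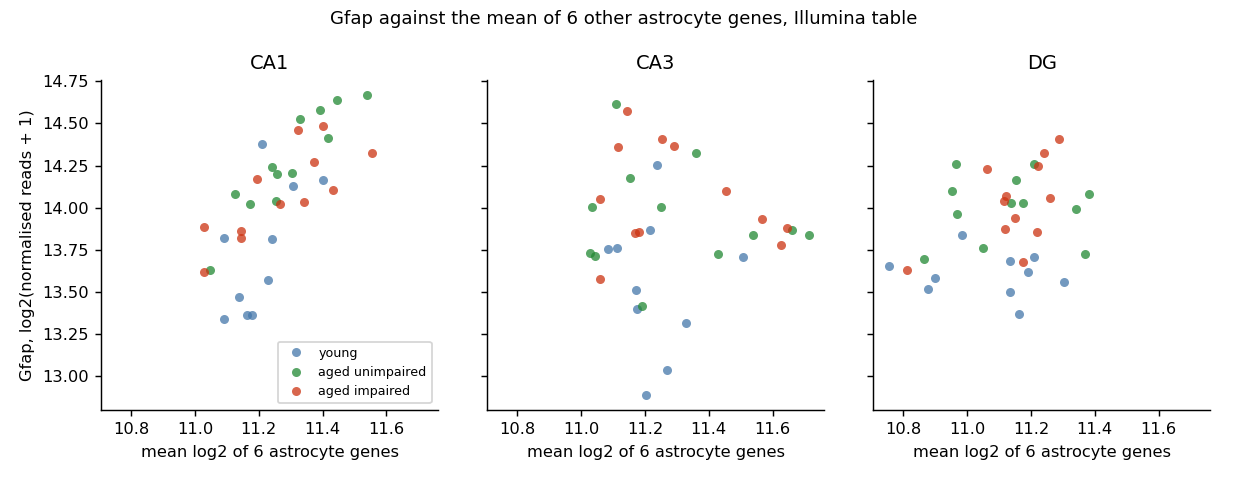
Gfap in log2(normalised reads + 1) (vertical axis) against the mean log2 level of Aqp4, S100b, Aldh1l1, Aldoc, Sox9 and Fgfr3 (horizontal axis) in the Illumina table, 1 point per rat. At a like level of the 6 genes most young rats lie below the aged in DG, whose mean relative levels are 2.54, 2.87 and 2.88.

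Vim, which forms filaments together with Gfap, was not called with age, and its values were ruled by a few high libraries. In CA1 the lowest, median and highest values were 471, 653 and 2310 in the young, 394, 841 and 2254 in the unimpaired and 433, 611 and 3348 in the impaired rats. In CA3 they were 479, 1059 and 9207, then 581, 1266 and 2062, then 357, 1049 and 2138. In DG they were 254, 407 and 1416, then 265, 463 and 819, then 224, 436 and 1415. Each age held libraries at both ends of the range, and the log2 differences were 0.04 in CA1 (95% interval −0.50 to 0.58), −0.26 in CA3 (−0.86 to 0.35) and 0.15 in DG (−0.39 to 0.69). All 3 intervals hold 0, and those of CA1 and DG also hold the Gfap difference of the same subfield.

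**Figure D4:**
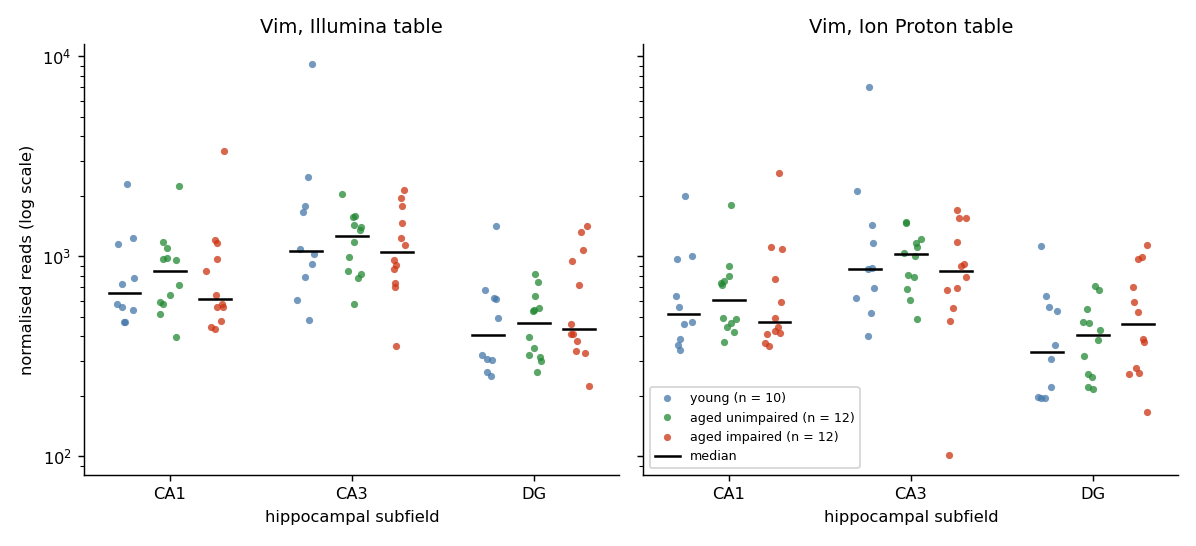
Normalised Vim reads on a logarithmic axis by subfield in the Illumina table (left) and the Ion Proton table (right). Points are rats, bars are group medians, and the highest point in both tables is the young CA3 library of rat R9876 (9207 in the Illumina table).

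The highest Vim library, young CA3 of rat R9876 at 9207, also had the highest summed level of all libraries for markers of the leptomeninges (29623) and of endothelium (7740). Without it the young CA3 mean was 1205 ± 650 (n = 9), and the age difference of Vim in CA3 was 0.06 in place of −0.26. The next library, impaired CA1 of rat R2231 at 3348, was second for the leptomeninges sum (10948) and had a choroid plexus sum of 11872. The young CA3 library of rat R2221, at 2488, had a choroid plexus sum of 13114 and the highest ependyma sum (1705), and the young CA1 library of rat R2175, at 2310, had a leptomeninges sum of 6101. High sums also occurred without such Vim levels. The CA1 libraries of rats R9870 and R9865 had leptomeninges sums of 8625 and 7488 at Vim values of 1213 and 961. The highest choroid plexus sum, 156020 in an impaired CA1 library, was in none of the high Vim libraries named here. Over the 34 libraries of a subfield, Pearson's r was taken between log2 Vim and the mean log2 level of a marker list, for markers with a mean of at least 10. For the ependyma list r was highest in DG (0.93), beside 0.58 in CA1 and 0.66 in CA3. With the leptomeninges it was 0.69 in CA1, 0.52 in CA3 and 0.53 in DG. In DG r was also 0.89 with the oligodendrocyte markers. These coefficients describe libraries that share a normalisation, and the part of those cells in the Vim values was not tested.

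The number series moved with Vim in DG. Over all rats the DG values were 224 to 492 below 9000 (median 325, 18 rats) and 308 to 1416 from 9000 (median 700, 16 rats), whereas in CA3 the medians went the other way, 1431 and 816. Within the series from 9000 the impaired rats had 723 to 1415 in DG (median 1075) and the unimpaired 532 to 819 (median 594). The impaired minus unimpaired difference of Vim in DG was 0.32 over all aged rats (95% interval −0.25 to 0.89, p = 0.25) and not called. From 9000 alone it was 0.76 (p = 0.0006, adjusted p = 0.70, Ion Proton 0.67) and called, with the series as a term 0.43 (p = 0.0024, adjusted p = 0.70) and called, and below 9000 0.15 (p = 0.29). Of the DG libraries from 9000, the highest impaired one (rat R9781, 1415) and 2 unimpaired ones (R9865 and R9869) were among those nearer to another subfield. Without these the difference from 9000 was 0.56 (p = 0.0065, adjusted p = 0.82, Ion Proton 0.48), still called with 4 rats in each group.

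Between subfields the same members behaved in another way. A subfield call required an adjusted p under 0.05 in the same direction in both tables, over all libraries of each, and 14.1% of all genes were called between CA1 and CA3, 26.4% between CA1 and DG and 27.9% between CA3 and DG. By direction 7.12% were higher and 6.95% lower in CA1 than in CA3, 13.1% and 13.2% in CA1 than in DG, and 13.9% and 14% in CA3 than in DG. Of the 8 tested members 1, 2 and 4 were called. The counts are near those shares in the first 2 comparisons and above them in the third, with only 8 genes in each.

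Over all rats Vim differed in all 3 comparisons and was highest in CA3. The order was not the same in each number series. Below 9000 the medians of CA1, CA3 and DG were 558, 1431 and 325. From 9000 they were 976, 816 and 700, with CA1 the highest. Differences between subfields were not fitted within a series. Over all rats the means of Vim were 910 ± 622 (SD, n = 34) in CA1, 1438 ± 1466 in CA3 and 561 ± 332 in DG. CA3 exceeded DG by 1.25 on the log2 scale (2.39-fold, adjusted p = 8.0e-09, Ion Proton 1.16) and was the higher in 26 of 34 rats. CA1 exceeded DG by 0.68 (1.61-fold, adjusted p = 0.00103, Ion Proton 0.62), in 30 of 34 rats. CA1 was below CA3 by −0.57 (0.674-fold, adjusted p = 0.0101, Ion Proton −0.54 with adjusted p = 0.0456), in 20 of 34 rats. That last call did not pass without the CA3 library of rat R9876 (−0.48, Ion Proton adjusted p = 0.0834), and the call of CA1 over DG did not pass without the 10 libraries of highest leptomeninges sum (0.51, Ion Proton adjusted p = 0.0747). Between CA3 and DG, 5 of 7 ependyma markers, 2 of 8 leptomeninges markers and 10 of 10 oligodendrocyte markers were also called higher in CA3, and their part in the Vim difference was not tested.

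Aldoc, S100b and Aldh1l1 were lower in DG than in CA3. The mean of Aldoc was 12191 ± 1162 in CA1, 11857 ± 2294 in CA3 and 10125 ± 1223 in DG. It was higher in CA1 than in DG by 0.27 (adjusted p = 2.0e-06, Ion Proton 0.37), in 32 of 34 rats, and higher in CA3 than in DG by 0.21 (adjusted p = 0.00014, Ion Proton 0.33), in 26 of 34. The mean of S100b was 20660 ± 3193, 19131 ± 3708 and 16823 ± 2531, and CA3 exceeded DG by 0.17 (adjusted p = 0.0075, Ion Proton 0.24), in 27 of 34 rats. For CA1 over DG the S100b difference was 0.30 in the Illumina table (adjusted p = 7.8e-06), in 32 of 34 rats, but Ion Proton missed the threshold at an adjusted p of 0.0589, so it was not called. Without the 7 Ion Proton libraries with few genes detected that difference was 0.34 on Ion Proton in place of 0.21 (adjusted p = 3.5e-06) and S100b was called. It was also called with the rat as a block, with the number series as a term, by edgeR, by DESeq2 and by the table of unstated library type alone. Oligodendrocytes also make S100b, and 10 of 10 of their markers were called higher in CA1 and in CA3 than in DG; their part in the S100b differences was not tested.

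Aldh1l1 was highest in CA3. Its mean in CA3 was 394 ± 59.8, against 347 ± 40.1 in CA1 and 340 ± 32.2 in DG, and CA3 exceeded DG by 0.20 (adjusted p = 2.2e-05, Ion Proton 0.29), in 29 of 34 rats. CA1 minus CA3 was −0.18 in the Illumina table (adjusted p = 0.00036), with CA3 the higher in 28 of 34 rats, and −0.19 on Ion Proton with an adjusted p of 0.134, so this was not called. Without the 7 Ion Proton libraries it was −0.24 there (adjusted p = 0.0473) and called. CA1 and DG were next to each other in the order, and their means of 347 and 340 lay within 1 SD. Aqp4 was 7769 ± 1445, 7768 ± 1191 and 6946 ± 1012, and its Illumina differences over DG of 0.15 for CA1 and 0.16 for CA3 were not matched on Ion Proton (−0.02 and 0.04).

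Gfap was not called between subfields without regard to the rat. Over all ages its mean was 17521 ± 4399 for CA1, 15484 ± 4144 for CA3 and 15497 ± 2916 for DG. The log2 differences were 0.18 for CA1 minus CA3 (adjusted p = 0.0798), 0.16 for CA1 minus DG (adjusted p = 0.107) and −0.03 for CA3 minus DG. CA1 was the higher in 20 of 34 rats in both comparisons. Since each rat gave all 3 subfields, the fit was repeated with the rat as a block. Gfap was then called higher in CA1 than in CA3 (adjusted p = 0.0179, Ion Proton 0.0394) and than in DG (adjusted p = 0.0325, Ion Proton 0.0136). Below 9000 the Gfap median was lower in CA1 (15028) than in CA3 (15629), and from 9000 it was higher (20874 and 14652). Without the 7 Ion Proton libraries with few genes detected, limma without the block gave Ion Proton differences of 0.20 over CA3 (p = 0.066) and 0.20 over DG (p = 0.060). The block was not fitted within a series or without those libraries. The block also called S100b in CA1 over DG (Ion Proton adjusted p = 0.0376) and Sox9 in CA3 over DG (0.13, adjusted p = 0.0497, Ion Proton 0.0222), and brought the counts of members to 2, 4 and 5. The block also raised the shares of all genes called, to 15.8%, 29.2% and 30.8% in the same order. Fgfr3 was not called between any subfields, with or without the block.

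**Figure D5:**
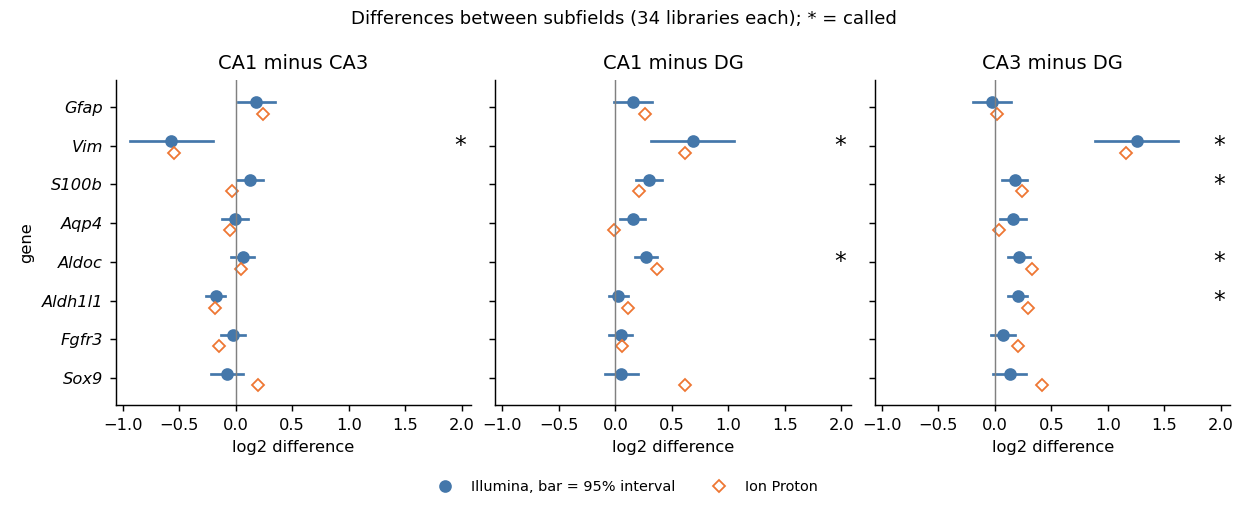
Log2 difference between subfields (horizontal axis) for the 8 tested members over 34 rats per subfield. Points and bars are the Illumina estimate with its 95% interval, diamonds are the Ion Proton estimate, and an asterisk marks a call. Vim has the largest differences (−0.57, 0.68 and 1.25).

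A wider list of 25 astrocyte genes, mostly glutamate, potassium and metabolite handling genes, was measured beside the members, with 24 tested. With age 1 of 24 was called higher in each subfield and 0 lower, beside 0.676%, 0.337% and 0.92% of all genes called higher in CA1, CA3 and DG and 0.155%, 0.0562% and 0.15% called lower. It was Slc14a1, a urea transporter, whose young and aged means in CA1 were 773 and 897, in CA3 760 and 881, and in DG 662 and 778, log2 differences of 0.21, 0.21 and 0.23 (adjusted p = 0.066, 0.289 and 0.0163). The study had already listed Slc14a1 as higher with age in every subfield of these rats, so its call is no independent support. The median of the list was 0.08, 0.10 and 0.08. The 23 other tested genes, among them the glutamate transporters Slc1a2 and Slc1a3, were not called.

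Of 28 genes linked to reactive astrocytes 24 were tested, and those called higher with age numbered 2 for CA1, 2 for CA3 and 4 for DG, with 0 lower, beside the same shares of all genes (0.676%, 0.337% and 0.92% higher). The complement genes C4b and C3 were called in every subfield. The study had already listed C3 as higher with age in every subfield of these rats, and named C4b among its age genes. The lists were chosen with such results known, so these counts are no independent support. Mean C4b in CA1 was 34.2 in the young and 64.4 in the aged, in CA3 44.9 and 72.3 and in DG 25.4 and 51.2, log2 differences of 0.87, 0.88 and 1.02 (adjusted p = 0.0032, 1 and 0.0022). Mean C3 was 682 and 1180, 811 and 1486, and 534 and 913 in the same order, differences of 0.84, 0.79 and 0.83 (adjusted p = 0.0263, 0.089 and 0.068). In DG the asparaginase Aspg (0.49, adjusted p = 0.078) and the transcription factor Stat3 (0.15, adjusted p = 0.11) were called as well. The list median was 0.10 for CA1, −0.01 for CA3 and 0.16 for DG, so most of the list did not share the size of the C4b, C3 and Gfap differences.

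Microglia, the immune cells of the brain, also express C3. Of 13 microglial markers 6 passed as higher with age in CA1, 3 did in CA3 and 9 did in DG, and all 13 had positive differences in each subfield, with medians of 0.28, 0.23 and 0.28. Of all genes 0.676%, 0.337% and 0.92% were called higher. Their summed level was 8054 to 12329 in the young and 8614 to 15501 in the aged in CA1, 8266 to 11788 and 8946 to 20301 in CA3, and 6472 to 9790 and 7390 to 12824 in DG. Pearson's r was taken between log2 Gfap and the mean log2 level of those markers that had a mean of at least 10. It was 0.80 in CA1, 0.32 in CA3 and 0.68 in DG over 34 libraries each. Of the microglial markers the study had already listed Csf1r, Ctss, Cx3cr1 and Trem2 as higher with age in every subfield of these rats. The part of microglia in the Gfap, C3 and C4b results was not tested. Markers of oligodendrocytes, endothelium, leptomeninges, choroid plexus and ependyma had 0 calls with age in the 3 subfields, which for lists this short is near those shares.

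Each aged group was also set against the young for both lists. Unimpaired against young the called genes were Slc14a1, C3, C4b and the proteasome subunit Psmb8 in CA1, C3 and the tissue factor gene F3 in CA3, and C4b, C3, Aspg and Stat3 in DG. Impaired against young they were Slc14a1, C4b and C3 in CA1, Slc14a1 and C3 in CA3, and Slc14a1, C4b, C3, Aspg and Psmb8 in DG. Both comparisons used the same young rats. Of all genes 0.607%, 0.386% and 0.621% were called unimpaired against young in CA1, CA3 and DG. Impaired against young the shares were 1.21%, 0.274% and 0.948%. Impaired against unimpaired, 0 genes of either list were called in any subfield. Of all genes 0.62%, 0.0211% and 0.121% were called there, so a count of 0 in lists this short is near the background.

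Between subfields the wider astrocyte list was on the side of CA1 and CA3. It had 2 of 24 called higher in CA1 than in CA3 (Id4 0.28 and Ndrg2 0.16), 10 of 24 higher in CA1 than in DG and 7 of 24 higher in CA3 than in DG, and 0 lower in each. The largest over DG were Id3 (0.43), the neurotensin receptor Ntsr2 (0.35), the connexin Gjb6 (0.34), Id4 (0.31) and the adhesion protein Hepacam (0.28) in CA1. In CA3 they were the potassium channel Kcnj10 (0.40), Gjb6, the amino acid transporter Slc7a10 and Hepacam (0.34 each) and glutamine synthetase, Glul (0.24). Over all genes 7.12%, 13.1% and 13.9% were called higher in these 3 comparisons.

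The reactive list was mixed between subfields. In CA1 against CA3, 4 genes were lower and 0 higher, led by Amigo2 (−0.94) and including the filament genes Synm (−0.42) and Nes (−0.33) and the glucocorticoid-induced Fkbp5 (−0.26). In CA1 against DG 3 were higher, among them Emp1 (0.65) and the hyaluronan receptor Cd44 (0.55), and 3 lower (Cd109 −0.61, Synm −0.59 and Fkbp5 −0.45). In CA3 against DG 9 were higher and 2 lower, with Amigo2 (0.90), Serping1 (0.90), ceruloplasmin Cp (0.73), C3 (0.69) and Gbp2 (0.66) the largest. Over all genes the shares higher and lower were 7.12% and 6.95%, 13.1% and 13.2%, and 13.9% and 14%, in the same order. Amigo2 is also a known marker of hippocampal pyramidal neurons, in particular of CA2 and CA3.

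The 5 genes most like Gfap across rats, by the mean of the 3 Pearson coefficients within subfield over 34 Illumina libraries each, were Pla2g7 (0.88), Gpnmb (0.77), Padi2 (0.75), C3 (0.75) and Mt2A (0.73), of 13885 genes ranked. On Ion Proton the same means were 0.49, 0.62, 0.73, 0.58 and 0.30, so Padi2 kept its likeness best. Among the members Aqp4 ranked 199 with a mean of 0.55, but −0.24 on Ion Proton. S100b (0.37), Vim (0.28), Aldh1l1 (0.25) and Sox9 (0.23) followed, and Aldoc (−0.01) and Fgfr3 (−0.04) were last. The Ion Proton means differed, at 0.48 for Sox9, 0.44 for Aldh1l1, 0.41 for Aldoc, 0.19 for S100b, 0.13 for Vim and 0.01 for Fgfr3, so the order of the members was not repeated between the tables. Without the 7 libraries with few genes detected the Ion Proton mean of S100b was 0.44 and that of Aqp4 −0.16.

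Among the members themselves, Aldoc and S100b moved together from rat to rat in the Illumina table (r = 0.76 in CA1, 0.87 in CA3 and 0.85 in DG), as did Aldh1l1 with Aqp4 (0.70, 0.67 and 0.68) and Aqp4 with Sox9 (0.66, 0.60 and 0.68). These r pool both number series. In CA1 the medians below and from 9000 were 6587 and 8883 for Aqp4, 315 and 378 for Aldh1l1, and 197 and 236 for Sox9. The part of the series in these r was not tested. Gfap and Vim were only loosely related (0.33, 0.10 and 0.41). How far such values can be read depends on how well the 2 instruments gave the same order of rats. Between Illumina and Ion Proton r was 0.98, 0.95 and 0.97 for Vim and 0.82, 0.88 and 0.80 for Gfap, but 0.50, 0.51 and 0.86 for S100b, 0.53, 0.55 and 0.59 for Aqp4, −0.06, 0.55 and 0.40 for Aldoc and 0.26, 0.01 and 0.32 for Sox9, each over 34 libraries. These coefficients include the 7 Ion Proton libraries with few genes detected. Without them r was 0.94, 0.89 and 0.80 for Gfap, 0.90, 0.60 and 0.86 for S100b, 0.74, 0.04 and 0.32 for Sox9 and −0.03, 0.58 and 0.40 for Aldoc, over 30, 31 and 34 libraries. For Fgfr3 r was 0.42, 0.74 and 0.69 over all libraries and 0.74, 0.77 and 0.69 without the 7, and for Aldh1l1 it was 0.52, 0.51 and 0.35, then 0.66, 0.49 and 0.35. Vim had the highest r in each subfield, with and without those libraries. In DG S100b (0.86) came before Gfap (0.80), and in CA1 the values of S100b, Sox9 and Fgfr3 depended on those libraries.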

How the data were processed

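Poly-A RNA of 3 hippocampal subfields from 34 rats was sequenced on Illumina and Ion Proton. The deposited values are a signal in which the authors divided gene reads by a DESeq2 size factor per library. Tools in their processing notes were bcl2fastq 2.17, cutadapt 1.8.3, STAR 2.5, featureCounts 1.4.4 and DESeq2 1.16.1 on rn5. By the paper, bcl2fastq, cutadapt and STAR were used for the Illumina reads, while the Ion Proton reads were aligned with TopHat2 and Bowtie2. Whether strand was used in counting is not given in the sources used here. Whole reads were recovered for 100.0% of values (tolerance 0.01), and 48 rows carried no symbol. Genes with a mean of at least 10 were fitted with limma 3.58.1 (R 4.3.3, trended variance) on log2(value + 1), which understates changes of low genes, and p-values were adjusted by the Benjamini-Hochberg method over all genes. The steps were tested on simulated data.

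Age and cognition calls use the thresholds of the study (0.01 and one-sided 0.05), and subfield calls an adjusted 0.05 in both tables. The same rat gave the 3 subfields, so a fit with the rat as a block was added. edgeR 4.0.16 and DESeq2 1.42.0 on recovered reads, the table of unstated library type, no filter, a pseudocount of 0.1, quantile normalisation, the number series and leaving out rats were the alternatives. Named genes were every member, the called genes of both astrocyte lists (the 5 with the largest change where over 5 were called) and the 5 nearest to Gfap. The members and lists were chosen with earlier results of these data known. Counts of 3 reads or fewer were taken as the floor.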

Additional observations from a re-analysis of the deposited data

Results flagged for a closer look

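Dixon's gap test was applied to 27 sets of 10 young rats (9 genes in 3 subfields, Illumina table), but the Serpina3n sets were exempt from flagging. Of the sets, 7 held a sample set apart from the rest, where chance gives about 1 in 20 of those open to flagging. Vim gave 3 of these, all high: 2309.74 normalised reads in CA1 of rat R2175, 9206.93 in CA3 of rat R9876 and 1415.93 in DG of rat R9881. S100b was high in CA1 of rat R9780 (23237.3) and Aldh1l1 in CA1 of rat R9877 (433.994). Sox9 was low in CA3 of rat R9780 (147.252) and Fgfr3 in DG of rat R2221 (1080.89). The aged groups have 12 rats and were not tested in this way.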

How the results depend on the processing

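The count of members called moved in these cases. Between CA1 and CA3 (1 member) it was 2 in the table of unstated library type, 2 with quantile normalisation, 2 with the rat as a block, 2 without the 7 Ion Proton libraries with few genes detected (Aldh1l1 added; chosen after seeing the data), 0 with no filter (Vim, Ion Proton adjusted p = 0.0686) and 0 without the CA3 library of rat R9876; between CA1 and DG (2) it was 4 with the rat block, 3 in the table of unstated library type, with the series term, by edgeR, by DESeq2 and without those 7 libraries (S100b added in each) and with quantile normalisation (Gfap added), and 1 without the 10 libraries of highest leptomeninges sum, an alternative chosen after seeing the data. Quantile normalisation called Gfap in CA1 over CA3 (0.22, adjusted p = 0.028) and over DG (0.20, adjusted p = 0.0308). With age, the table of unstated library type gave 2 in CA1 (1 otherwise), and CA3 (1) gave 0 without the 10 libraries nearer to another subfield and 0 below 9000. Unimpaired against young, CA3 (0) gave 1 in the table of unstated library type and 1 with the series term, and DG (1) gave 0 below 9000. Impaired against young, CA1 (0) gave 1 in the table of unstated library type, with quantile normalisation, with the series term and below 9000; CA3 (1) gave 2 in the table of unstated library type, 0 without the 10 libraries, 0 below 9000 and 2 from 9000 (Aqp4, 0.29, p = 0.0033); DG (1) gave 2 with the series term (S100b, 0.20, p = 0.00998). Impaired against unimpaired, DG (0) gave 1 with the series term 1 from 9000 and 1 from 9000 without the libraries nearer to another subfield (chosen after seeing the data), in each case Vim. Leaving out 1 rat gave 0 to 1 for impaired against young in CA1 (1 without rat R1931, R9780, R9877 or R9879), 0 to 1 for unimpaired against young in CA3 (1 without rat R2221 or R9869) and 1 to 2 for impaired against young in DG (2 without rat R2233). The cause was not tested. In CA3 with age the table of unstated library type also had 1 call, S100b in place of Gfap. The rat block changed no call in the interactions. For single genes, 2092 values kept their call and direction, 27 gained a call, 9 lost one and 0 reversed, and over the fits that leave out 1 rat 2441 values kept theirs and 7 gained one. The adjusted p of Gfap with age ranged from 0.0017 to 0.54 over the alternatives in CA1. For CA3 it was 0.185 to 1.0, and for DG 9.1e-06 to 0.281. Serpina3n was below the filter in the Illumina table, and whether depth set its low values was not tested.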
